A study of Mus musculus with 5 samples.

Results

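The kinesin superfamily was examined in 6DT1 cells, a highly metastatic mouse mammary carcinoma line, after knockdown of *Arid4b*, which encodes a subunit of the mSIN3A histone deacetylase complex. Members were all genes whose symbol is Kif or Kifc followed by a number and at most 1 letter, taken from probe sets with a single gene symbol, and 39 such genes were found among the 19938 genes measured. They were divided by known role into 13 mitotic kinesins, 15 transport kinesins and 11 others, the last acting mainly in cilia, signalling or the control of microtubule growth. The mitotic kinesin *Kifc1* and its near-identical copy *Kifc5b* share a probe set that carries both names, so neither has a value here, and *Kif28* had no probe set with its name alone.

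The data are 5 Affymetrix Mouse Gene 1.0 ST arrays, 1 per line. The *Arid4b* knockdown cohort held 2 lines of 6DT1 cells transduced with lentiviral pLKO.1 vectors carrying *Arid4b* hairpin H3 or H4 and selected with puromycin. The control cohort held 3 lines, namely cells with *Arid4b* hairpin H5, which left the protein at a normal level, cells with a scrambled hairpin in the same vector, and untransduced cells, which had not been selected with puromycin. Each stable line was a pool of clones, so that each hairpin is represented by a single transduced population and a single array. ARID4B densitometry relative to the scrambled line was 0.19 with H3, 0.15 with H4, 1.02 with H5 and 1.09 without transduction, and *Arid4b* mRNA was 6.88 (log2) with H3 and 7.35 with H4, against 8.24 with H5, 8.34 with the scrambled hairpin and 8.36 without transduction.

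Values are the authors' normalized log2 expression values, and a log2 fold change is the mean of the knockdown lines minus the mean of the control lines. A gene is called lower or higher where its limma p, before adjustment, is under 0.05, which is also the cutoff of the study. By that rule 7.61% of all 19938 genes were lower and 4.34% higher, and no gene, kinesin or other, passed after Benjamini-Hochberg adjustment over all genes, where the smallest adjusted p was 0.147. These shares depended on single lines. The lower share was 3.89% when H5 was left out and 5.07% when untransduced cells were, and without H4 the higher share was 24.6% and 1266 genes passed after adjustment. There was 1 array per line, so the p-values reflect only how the lines vary, and that variation may be technical. The median log2 fold change of all genes was 0.033. The median over all probe sets was 6.35 for H3 and 6.24 to 6.25 for the other lines. The SD over all probe sets was 2.25 for H3 and 2.29 to 2.30 for the other lines. Of all genes, 46.9% lay higher in H3 than in every control line, against 25.7% for H4. The share of higher genes among all genes called was 36.3%, and it was 20% with array medians subtracted and 49.4% after another quantile normalization. Of the epithelial markers, *Krt8* and *Krt18*, keratins of luminal cells, lay between 11.6 and 12.3 on every array, and *Krt19* lay at 7.26 to 8.35 without passing. The other markers were expressed at lower levels than these keratins on each array and did not pass. *Krt7* lay at 6.67 to 6.89, *Cdh1* at 6.05 to 6.16 and *Epcam* at 5.61 to 5.75.

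Kinesins are motor proteins that use ATP to move along microtubules or to take them apart. Mitotic kinesins build the bipolar spindle, move and align chromosomes, and organize the central spindle at cytokinesis. The mRNAs of many of them, though not of every member, are known to peak in G2 and mitosis. Transport kinesins carry vesicles, organelles and ciliary cargo in interphase and in cells that do not divide. In RNA from a whole culture a smaller share of dividing cells and less mRNA per dividing cell cannot be told apart.

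Most mitotic kinesins were lower in the knockdown lines, and no transport kinesin was. Of 13 mitotic kinesins, 10 were lower (76.9%, against 7.61% of all genes), none was higher and 3 did not pass. Of 15 transport kinesins, none was lower, 1 was higher (6.67%, against 4.34% of all genes) and 14 did not pass. The median log2 fold change was -1.13 over the mitotic kinesins and 0.083 over the transport kinesins. Both knockdown lines lay below all 3 control lines in 11 of 13 mitotic kinesins and in 1 of 15 transport kinesins, where 13.5% of all genes did so. Taken singly, H3 lay below all controls in 12 of 13 mitotic kinesins (26.6% of all genes) and H4 in 11 of 13 (27.7% of all genes). Of all genes ordered by log2 fold change, the lowest 100 held 9 mitotic kinesins, with *Kif2c* in place 2 and *Kif4* in place 6. The classes were set side by side without a test between them. The count of lower mitotic kinesins was 6 without H5 (3.89% of all genes), 5 without the untransduced line (5.07%) and 5 with an unmoderated equal-variance test (4.19%). In that test *Kif11*, *Kif14*, *Kif15*, *Kif20a* and *Kif22* did not pass. The count lay between 8 and 11 under the other alternatives that kept both knockdown lines. It was 8 without the scrambled line (8.0% of all genes) and 11 with array medians subtracted (10.2%) or array weights (4.54%).

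**Figure D1:**
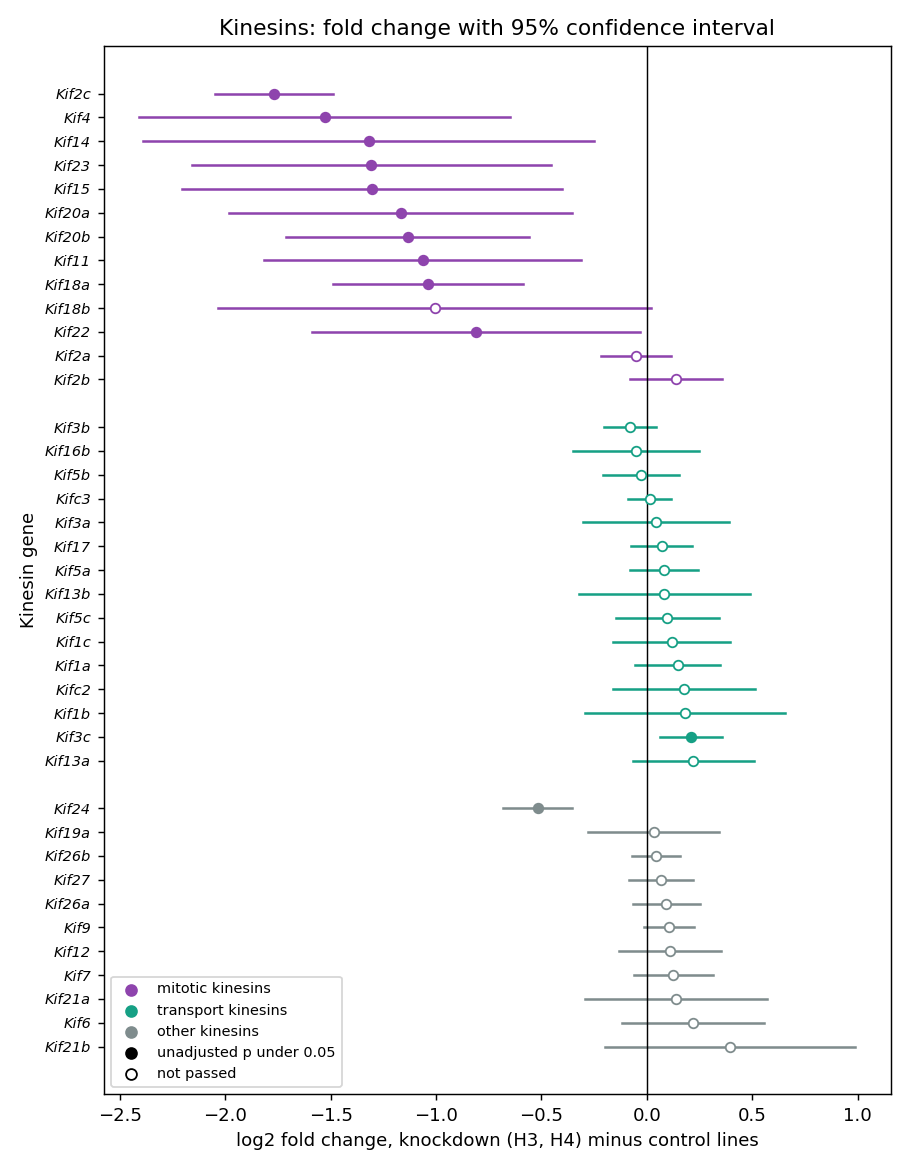
Log2 fold change of each of the 39 kinesins (rows, grouped by class), knockdown minus control lines, with the 95% confidence interval from limma. Filled points passed an unadjusted p under 0.05. The mitotic kinesins other than *Kif2a* and *Kif2b* lie at -0.81 or further left, and the transport kinesins lie within -0.08 and 0.22.

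The start regions of the kinesin genes were also searched for short motifs, and the classes differed most in the share with TTTGAA. A CHR element (TTTGAA) and a CCAAT box (CCAAT) are motifs known from promoters of genes expressed in G2 and mitosis, and TTTNNCGC is a loose form of the E2F site. All were searched on both strands in the 250 bases before and 50 bases after the gene start in RefSeq (GRCm38.p6), which covered 31 of the 39 kinesins, and no match of 1 motif overlapped a match of another. TTTGAA was present in 9 of 12 mitotic kinesins (75%), 1 of 10 transport kinesins (10%) and 2 of 9 others (22.2%), against 20.2% of 27025 genes. CCAAT was present in 7 of 12 mitotic kinesins (58.3%) and 3 of 10 transport kinesins (30%) and 4 of 9 others (44.4%), against 41.1% of all genes. Both motifs together were in 6 mitotic kinesins (50%), *Kif4*, *Kif11*, *Kif14*, *Kif18b*, *Kif22* and *Kif23*, in no transport kinesin, in 2 of 9 others (22.2%, *Kif26b* and *Kif27*) and in 8.97% of all genes, a gene being counted where any of its start regions held the motif. TTTNNCGC was in *Kif15* and *Kif18a* among the mitotic kinesins (16.7%), in *Kif1a* among the transport kinesins (10%) and in none of the 9 others. It was in 5.93% of all genes. These shares are descriptions, and a match is not a bound site.

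The sequences of 5 start regions are shown, 5′ to 3′ on the strand of the gene, with matches to the motifs in capitals (ATTGG and TTCAAA are CCAAT and TTTGAA on the opposite strand). The first 3 are mitotic kinesins with both motifs near the start, *Kif2c* is the kinesin with the lowest fold change, and *Kif3c* is the transport kinesin that was higher. The set was chosen after the values and matches had been seen.
*Kif11*, chr19:37376132-37376431, plus strand: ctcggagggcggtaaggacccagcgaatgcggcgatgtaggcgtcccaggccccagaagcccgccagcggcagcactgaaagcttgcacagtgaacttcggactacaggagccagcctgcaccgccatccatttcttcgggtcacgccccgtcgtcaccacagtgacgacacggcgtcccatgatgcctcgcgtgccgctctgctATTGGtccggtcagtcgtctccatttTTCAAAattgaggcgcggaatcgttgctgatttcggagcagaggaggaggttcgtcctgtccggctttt
*Kif4*, chrX:100625815-100626114, plus strand: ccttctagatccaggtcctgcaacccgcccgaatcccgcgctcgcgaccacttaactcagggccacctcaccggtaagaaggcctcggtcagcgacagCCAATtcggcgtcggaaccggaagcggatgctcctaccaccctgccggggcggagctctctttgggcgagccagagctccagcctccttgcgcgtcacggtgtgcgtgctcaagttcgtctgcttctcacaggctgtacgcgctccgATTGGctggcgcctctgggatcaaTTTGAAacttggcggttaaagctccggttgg
*Kif23*, chr9:61946750-61947049, minus strand: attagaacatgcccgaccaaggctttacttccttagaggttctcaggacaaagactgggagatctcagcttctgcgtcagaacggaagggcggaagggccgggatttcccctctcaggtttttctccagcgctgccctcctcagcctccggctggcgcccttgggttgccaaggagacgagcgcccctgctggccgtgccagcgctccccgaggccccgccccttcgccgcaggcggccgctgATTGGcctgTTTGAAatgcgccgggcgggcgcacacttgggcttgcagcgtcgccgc
*Kif2c*, chr4:117178723-117179022, minus strand: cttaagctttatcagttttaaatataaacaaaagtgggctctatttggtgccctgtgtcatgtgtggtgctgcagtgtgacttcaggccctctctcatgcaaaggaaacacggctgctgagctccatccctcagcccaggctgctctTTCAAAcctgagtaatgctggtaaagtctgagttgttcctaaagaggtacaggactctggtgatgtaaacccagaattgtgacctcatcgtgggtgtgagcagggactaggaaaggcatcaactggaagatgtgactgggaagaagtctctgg
*Kif3c*, chr12:3364882-3365181, plus strand: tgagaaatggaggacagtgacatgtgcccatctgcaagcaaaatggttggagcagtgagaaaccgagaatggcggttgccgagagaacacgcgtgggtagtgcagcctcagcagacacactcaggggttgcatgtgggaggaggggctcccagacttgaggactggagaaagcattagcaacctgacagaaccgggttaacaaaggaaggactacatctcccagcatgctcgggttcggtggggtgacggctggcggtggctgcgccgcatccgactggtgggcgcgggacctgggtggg
Counted from the gene start, with the first transcribed base as 1, the *Kif11* region held CCAAT at -45 to -41 and TTTGAA at -19 to -14, both on the opposite strand. The *Kif23* region held CCAAT on the opposite strand at -7 to -3 and TTTGAA at 3 to 8. The *Kif4* region held CCAAT at -152 to -148 and, on the opposite strand, at -5 to -1, and TTTGAA at 20 to 25. The *Kif2c* region held TTTGAA alone, on the opposite strand at -103 to -98, and the *Kif3c* region held none of the motifs.

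The motors that assemble the spindle were lower in both knockdown lines. *Kif11*, the kinesin-5 (Eg5) that pushes the spindle poles apart, had a log2 expression of 9.67 with H3 and 8.76 with H4, against 10.24 with H5, 10.20 with the scrambled hairpin and 10.38 without transduction. Its log2 fold change was -1.06 (standard error, SE, 0.28), which is 2.09-fold lower. *Kif15*, a kinesin-12 that can keep the spindle bipolar beside Eg5, lay at 8.10 with H3 and 7.05 with H4, against 9.03 with H5, 8.66 with the scrambled hairpin and 8.94 without transduction, with a log2 fold change of -1.30 (SE 0.34). In both genes the knockdown lines did not overlap with the controls, and H4 was the lower of the pair. *Kif11* did not pass without the untransduced line, and *Kif15* passed neither without it nor without H5.

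The chromokinesins, which bind chromosome arms, were also lower. *Kif4*, called KIF4A in humans, which acts on chromosome arms and on the central spindle, had a log2 expression of 7.93 with H3 and 6.93 with H4, against 8.92 with H5, 8.75 with the scrambled hairpin and 9.19 without transduction. Its log2 fold change of -1.53 (SE 0.33, limma adjusted p = 0.292) corresponds to a level 2.88-fold lower. *Kif22* (Kid), which pushes chromosome arms away from the poles, lay at 8.96 with H3 and 7.996 with H4, against 9.32 with H5, 9.23 with the scrambled hairpin and 9.31 without transduction. The controls of *Kif22* spanned 0.0905, and its difference from the control mean was -0.33 in H3 and -1.29 in H4. Its log2 fold change was -0.81 (SE 0.29), with a 95% interval of -1.59 to -0.032, and it did not pass without any 1 of the control lines or after another quantile normalization.

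The kinesins that shorten microtubules or act at their ends were divided. *Kif2c* (MCAK), the kinesin-13 depolymerase of the centromere that corrects faulty attachments, had a log2 expression of 8.48 with H3 and 8.44 with H4, against 10.23 with H5, 10.06 with the scrambled hairpin and 10.39 without transduction. Its log2 fold change was -1.77 (SE 0.11, limma adjusted p = 0.147), 3.40-fold lower, with a 95% interval of -2.05 to -1.49. *Kif2a*, its relative at the spindle poles, which also acts in neurons, lay at 8.98 with H3 and 9.12 with H4, against 9.14 with H5, 9.05 with the scrambled hairpin and 9.11 without transduction. The log2 fold change of *Kif2a* was -0.052, with a 95% interval of -0.22 to 0.11 that lies above the interval of *Kif2c*. *Kif2b*, another spindle kinesin-13, lay at a low mean (under 5.86, as 6646 of all genes did), at 5.59 with H3 and 5.37 with H4, against 5.29 to 5.37 in the controls, and did not pass (log2 fold change 0.14). It had the same value in 3 lines, which limits what its fold change can show.

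Another kinesin-13, *Kif24*, fell outside the mitotic class but was lower as well. It encodes a depolymerase of the mother centriole that restrains the growth of primary cilia. Its log2 expression was 6.69 with H3 and 6.65 with H4, against 7.27 with H5, 7.18 with the scrambled hairpin and 7.11 without transduction. The log2 fold change was -0.52 (SE 0.062, limma adjusted p = 0.209), 1.43-fold lower. Of the 11 other kinesins, *Kif24* alone passed in either direction (9.09% lower, near the 7.61% of all genes). Within this family, 2 of 4 members were thus lower, and the pair that was lower had nearly the same level in H3 as in H4.

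The kinesin-8 motors *Kif18a* and *Kif18b* walk to microtubule plus ends, where KIF18A dampens chromosome movement at the metaphase plate and KIF18B acts on astral microtubules. *Kif18a* lay at 7.36 with H3 and 6.88 with H4, against 8.13 with H5, 8.04 with the scrambled hairpin and 8.30 without transduction, a log2 fold change of -1.04 (SE 0.17). *Kif18b* lay at 9.48 with H3 and 8.22 with H4, against 9.86 with H5, 9.74 with the scrambled hairpin and 9.98 without transduction. Both knockdown lines lay below all controls for *Kif18b* too, but its log2 fold change of -1.01 (SE 0.39) missed the threshold at an unadjusted p = 0.0529 from limma. It passed under 5 of the 12 alternatives, namely the trend and robust options, array medians subtracted, genes of low mean dropped, array weights and without H3. The distance between its knockdown lines was the largest among the mitotic kinesins, at -1.26 for H4 minus H3 on the log2 scale.

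All 4 motors of the central spindle and cytokinesis were lower. *Kif23* (MKLP1), the motor of the centralspindlin complex, had a log2 expression of 8.997 with H3 and 8.04 with H4, against 9.79 with H5, 9.61 with the scrambled hairpin and 10.07 without transduction. *Kif20a* (MKLP2), which brings the passenger complex to the central spindle, lay at 9.78 with H3 and 8.82 with H4, against 10.53 with H5, 10.29 with the scrambled hairpin and 10.58 without transduction. Their log2 fold changes were -1.31 (SE 0.32) and -1.17 (SE 0.31). *Kif20b* (MPP1), which acts late in cytokinesis, lay at 7.78 with H3 and 7.18 with H4, against 8.70 with H5, 8.40 with the scrambled hairpin and 8.75 without transduction. *Kif14*, which binds citron kinase at the midbody, lay at 8.54 with H3 and 7.34 with H4, against 9.14 with H5, 9.04 with the scrambled hairpin and 9.60 without transduction. Their log2 fold changes were -1.13 (SE 0.22) and -1.32 (SE 0.40), and the knockdown lines overlapped with the controls in none of these genes. *Kif14* did not pass without H4, nor without any 1 of the control lines. *Kif20a* did not pass without H5 or without the untransduced line.

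**Figure D2:**
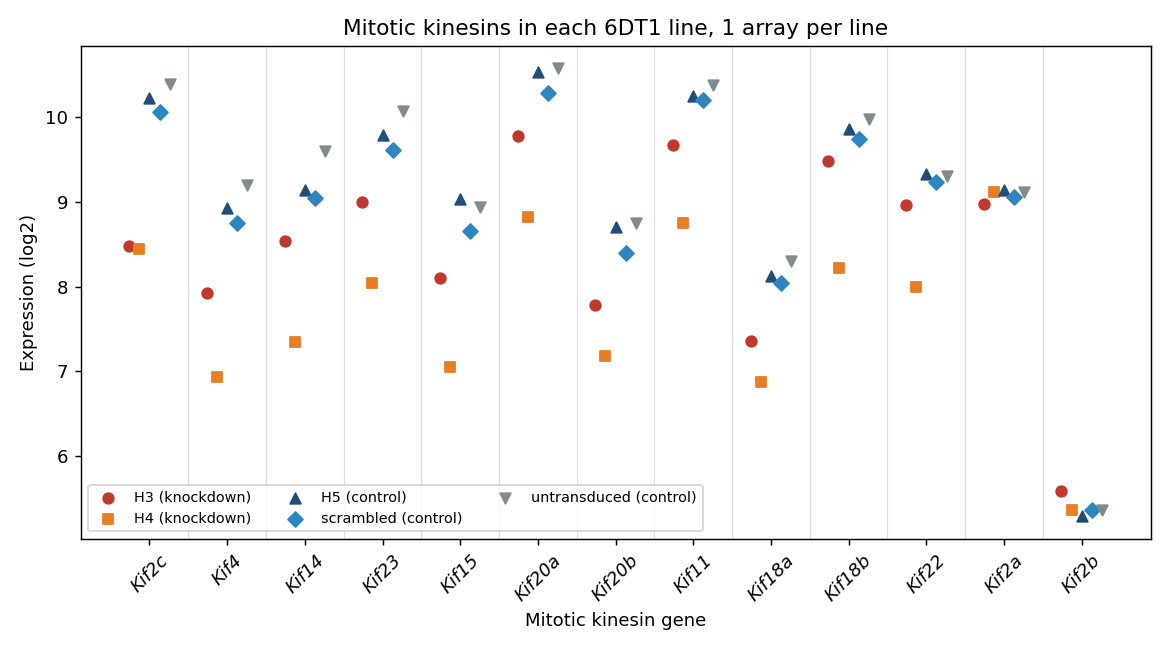
Log2 expression (vertical axis) of the 13 mitotic kinesins (horizontal axis, ordered by fold change) in each of the 5 lines, 1 point per line and array. In the 11 genes on the left both knockdown lines lie below the 3 control lines, for *Kif2c* at 8.48 and 8.44, and in *Kif2a* and *Kif2b* they overlap with the controls.

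The knockdown lines differed from each other in most mitotic kinesins. H4 lay below H3 in 12 of 13, where 58.9% of all genes did so, and the median difference between these lines was -0.95 (log2) over the mitotic kinesins, against -0.045 over all genes and 0 over the transport kinesins. Relative to the control mean, the median of the mitotic kinesins was -0.72 in H3 and -1.63 in H4. In the 11 genes below all controls in both lines, H3 ranged from -1.75 to -0.33 and H4 from -2.03 to -1.28. *Kif2c* set the low end in H3, with -1.75 in H3 and -1.79 in H4, a difference between the lines of -0.040. In the other 10 genes the difference between H4 and H3 ran from -1.26 to -0.48, with *Kif18a* at the end nearest to 0. *Kif24*, at -0.50 in H3 and -0.54 in H4, likewise lay at almost the same distance in both lines. With 1 array per hairpin these differences have no replicate, and they were not tested.

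The control lines were not equal either. The scrambled line was the lowest control in 12 of 13 mitotic kinesins, where it was the lowest in 34.2% of all genes, and untransduced cells were the highest in 9 of 13, against 31.8% of all genes. Relative to the control mean, the median of the mitotic kinesins was -0.0024 in H5, -0.16 in the scrambled line and 0.12 in untransduced cells. The median spread between the highest and the lowest control was 0.29 in the mitotic kinesins, 0.13 in the transport kinesins and 0.12 over all genes. In the 11 genes below all controls, the smallest distance from H3 to the lowest control was 0.26.

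The transport kinesins had small log2 fold changes, and more of them lay above the controls than below. Both knockdown lines lay above all controls in 5 of 15, against 13.9% of all genes. Taken singly, H3 did so in 9 of 15 (46.9% of all genes) and H4 in 8 of 15 (25.7% of all genes). In each of the 5 genes above in both lines, the nearer line exceeded the highest control by less than the controls spanned. The log2 fold changes of all 15 ran from -0.079 in *Kif3b* to 0.22 in *Kif13a*, and 3 of 15 were negative. Over all 15 genes the 95% intervals reached from -0.35 at the lowest, in *Kif16b*, to 0.65 at the highest, in *Kif1b*. None included the median of the mitotic kinesins, but that median is itself an estimate, so this is no test between the classes. *Kif5b*, the ubiquitous heavy chain of conventional kinesin (kinesin-1), had a log2 expression of 9.99 with H3 and 10.09 with H4, against 10.08 with H5, 9.98 with the scrambled hairpin and 10.14 without transduction. Its log2 fold change was -0.028, with a 95% interval of -0.21 to 0.15. The neuronal heavy chains *Kif5a* and *Kif5c* had log2 fold changes of 0.081 and 0.097, with *Kif5c* at a mean under 5.86 and *Kif5a* at the same value in 4 lines.

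Among the subunits of kinesin-2, which carries cargo into cilia, *Kif3c* was the single transport kinesin that was higher. It lay at 8.43 with H3 and 8.46 with H4, against 8.30 with H5, 8.23 with the scrambled hairpin and 8.17 without transduction, so that both knockdown lines lay above the controls. Its log2 fold change was 0.21 (SE 0.055, limma adjusted p = 0.327), 1.16-fold higher, and it did not pass with array medians subtracted, with the trend and robust options of limma, with array weights or without H4. *Kif3b* lay at 8.12 with H3 and 8.08 with H4, against 8.16 with H5, 8.15 with the scrambled hairpin and 8.22 without transduction, below all controls without passing (log2 fold change -0.079, 95% interval -0.20 to 0.044). *Kif3a*, the partner of *Kif3b* in the heterotrimer, lay at 7.98 in H3 and 8.37 in H4, on opposite sides of the controls at 8.18 in H5, 8.18 in the scrambled line and 8.03 in untransduced cells. *Kif17*, the homodimeric member, lay at 6.38 with H3 and 6.306 with H4, against 6.302 with H5, 6.302 with the scrambled hairpin and 6.21 without transduction. Both lines lay above its controls without passing, but H4 exceeded the highest by less than the 0.094 that the controls spanned.

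The kinesin-3 carriers of vesicles and endosomes did not pass in either direction. *Kif1a*, which carries synaptic vesicle precursors, lay at 6.05 with H3 and 5.84 with H4, against 5.81 with H5, 5.76 with the scrambled hairpin and 5.83 without transduction. Its mean lay just under the low-mean limit of 5.86, where a fold change says little. *Kif1c* lay at 8.16 in both H3 and H4, against 8.14 with H5, 7.85 with the scrambled hairpin and 8.13 without transduction. *Kif13a*, a carrier of endosomal cargo, lay at 8.27 with H3 and 8.60 with H4, against 8.16 with H5, 8.26 with the scrambled hairpin and 8.22 without transduction. In these 3 genes both knockdown lines lay above all controls, but in each the nearer line exceeded the highest control by less than the spread between the controls. *Kif14*, the mitotic member of the same family, had a log2 fold change of -1.32, while the 6 transport members ran from -0.052 to 0.22. The kinesin-14 motors *Kifc2* and *Kifc3* had log2 fold changes of 0.18 and 0.013, with *Kifc3* at the same value in 4 of the 5 lines.

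Of the 11 other kinesins, 10 did not pass, with log2 fold changes of 0.033 to 0.39. *Kif7*, which acts in Hedgehog signalling at the tip of the cilium, lay at 7.19 with H3 and 7.12 with H4, against 6.92 with H5, 7.08 with the scrambled hairpin and 7.08 without transduction. *Kif9*, a kinesin of motile cilia, lay at 5.76 with H3 and 5.79 with H4, against 5.67 with H5, 5.71 with the scrambled hairpin and 5.63 without transduction. In both genes the knockdown lines lay above the controls by a small margin, and *Kif9* had a mean under 5.86, where a fold change says little. The top of the range was *Kif21b*, a regulator of microtubule growth, at 8.55 with H3 and 8.67 with H4, against 7.86 with H5, 8.58 with the scrambled hairpin and 8.20 without transduction. *Kif21b* was named after its values had been seen, and its control lines spanned 0.72, so that H3 lay within them.

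Most partners of the mitotic kinesins were lower too. Of 15 partners of mitotic kinesins, 14 were lower (93.3%, against 7.61% of all genes) and 1 was higher (6.67%, against 4.34% of all genes). Their median log2 fold change was -0.98. *Dlgap5* (HURP), which stabilizes kinetochore fibres, had a log2 fold change of -1.26 (SE 0.26), *Tpx2*, which targets KIF15 and Aurora A to the spindle, -1.13 (SE 0.27), and *Incenp*, the scaffold of the passenger complex, -0.998 (SE 0.28). The exception was *Psrc1*, which encodes a partner of KIF2A at the spindle, at 9.15 with H3 and 9.05 with H4, against 8.35 with H5, 8.69 with the scrambled hairpin and 8.25 without transduction, a log2 fold change of 0.67 (SE 0.15). *Cenpe*, a kinesin-7 of the kinetochore that the symbol rule leaves out, lay at 8.88 with H3 and 8.25 with H4, against 9.73 with H5, 9.66 with the scrambled hairpin and 9.88 without transduction, with a log2 fold change of -1.20 (SE 0.21). *Stard9*, the other kinesin without a Kif symbol, did not pass (0.079).

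The partners of transport did not show such a decrease. Of 12 kinesin light chains and cargo adaptors, none was lower (against 7.61% of all genes) and 1 was higher (8.33%, against 4.34% of all genes). The higher gene was *Trak1*, the mitochondrial adaptor of kinesin-1, with a log2 fold change of 0.19 (SE 0.073), and the median was 0.014. The 12 values ran from -0.35 in *Trak2* to 0.33 in *Klc4*, and neither of these passed. Both knockdown lines lay below all controls in 2 of the 12 genes (13.5% of all genes) and above them in 4 (13.9% of all genes). Of 16 subunits of cytoplasmic dynein and dynactin, the motor that moves the opposite way, none was lower (against 7.61% of all genes). In that list 2 were higher (12.5%, against 4.34% of all genes), and the median was -0.030. The higher genes were the dynactin subunits *Dctn2* (log2 fold change 0.30, SE 0.077) and *Dctn3* (0.34, SE 0.095). Both knockdown lines lay below all controls in 4 of the 16 genes (13.5% of all genes) and above them in 3 (13.9% of all genes).

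Markers of proliferation moved with the mitotic kinesins. All 6 measured were lower (100%, against 7.61% of all genes), among them *Pcna* (log2 fold change -0.66), *Mki67* (-0.96), *Cdk1* (-0.77) and *Mcm6* (-0.68). Relative to the control mean, the median of the 6 markers was -0.44 with H3 and -1.10 with H4. The log2 of their summed linear levels was 12.6 to 13.2 in the knockdown lines against 13.5 to 13.8 in the control lines, while that of the 13 mitotic kinesins was 11.7 to 12.5 against 13.01 to 13.30. Their part in the result was not tested. Of 5 leukocyte markers, 2 were higher (40%, against 4.34% of all genes). *Cd68*, which is also a lysosomal gene of other cells, was higher (10.96 in both knockdown lines, against 9.93 to 10.07). *Csf1r* was higher too (5.40 to 5.54 against 5.26 to 5.30). The markers *Ptprc*, *Adgre1* and *Csf1r* itself lay at means under 5.86, while *Cd3e* lay above that limit, at a mean of 6.26, and did not pass. The log2 of the summed leukocyte markers was 11.08 to 11.10 in the knockdown lines and 10.2 to 10.3 in the control lines. *Cd68* carried that sum, and without it the other 4 markers summed to 7.42 to 7.62 in the knockdown lines and 7.40 to 7.44 in the control lines. Of the 6 stromal and the 6 epithelial markers none passed, where 12% of all genes passed in either direction.

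**Figure D3:**
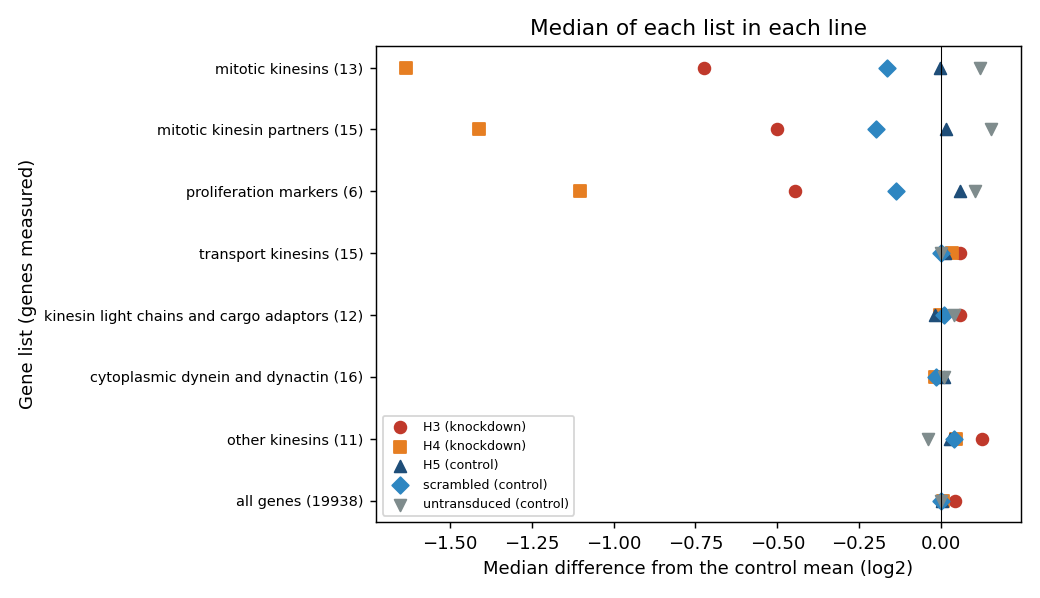
Median log2 difference from the control mean (horizontal axis) of each gene list (rows, with the number of genes measured) in each of the 5 lines. H4 and H3 lie left of the controls for the mitotic kinesins (-1.63 and -0.72), their partners and the proliferation markers, and near 0 for the transport kinesins, light chains, adaptors, dynein and dynactin.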

How the data were processed

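Total RNA of 5 lines was hybridised to 1 array each. The deposited values are log2 expression values per probe set; the authors normalized them in Partek Genomics Suite, and the submitters' processing notes also name RMA. Their versions are not stated. Of 35556 probe sets, 21789 had 1 gene symbol in the platform annotation, 1621 had several and 12146 were unnamed; symbols were updated through RefSeq gene IDs (21698 matched, GRCm38.p6). The probe set of highest mean over the 5 arrays stood for each of 19938 genes. The cohorts, taken from the ARID4B levels in the labels, were compared over all genes with limma 3.58.1 (R 4.3.3; functions lmFit and eBayes, prior degrees of freedom 1.58 beside 3 residual) and Benjamini-Hochberg adjustment; the step was tested on simulated data. The study names ANOVA, so an unmoderated equal-variance test was an alternative. No P-loop or other protein feature was analysed here. Members, classes, lists, motifs and tests were chosen with earlier results of these data known. All mitotic kinesins are given by line, as are other members that passed or whose knockdown lines lay beyond all controls, with *Kif5b*, *Kif3a* and *Kif3b*; of the other lists up to 4 genes are named. The number of arrays limits the precision. Alternatives are listed in the closing section. Figures were drawn with matplotlib 3.10.9.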

Additional observations from a re-analysis of the deposited data

Results flagged for a closer look

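In 3 of the 39 kinesins (7.69%) the knockdown lines lay on opposite sides of all 3 control lines. H4 lay above and H3 below in each of these 3 genes. The share on opposite sides was larger among all genes (2673 of 19938), so the pattern was not particular to kinesins. *Kif1b*, a carrier of mitochondria and vesicles, was 0.46 above the control mean in H4 and -0.10 from it in H3. *Kif21a*, a regulator of microtubule growth, was 0.39 above it in H4 and -0.11 from it in H3. *Kif3a* was 0.24 above it in H4 and -0.15 from it in H3. With 1 array per hairpin these differences were not tested.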

How the results depend on the processing

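The 12 alternatives were the unmoderated equal-variance test, the trend and robust options of limma, a second quantile normalization, subtraction of the median of each array, a filter that drops genes with a mean of 5.86 or less, averaging probe sets, array weights, and leaving out each of the 5 lines. The number of mitotic kinesins that were lower was 5 with the unmoderated test and 5 to 11 with a line left out. None was higher, except that 1 was (*Kif2b*) without H4, a range of 0 to 1, where 24.6% of all genes were higher. Their median log2 fold change was -1.63 to -0.72 with a line left out, the ends being without H3 and without H4. The number of transport kinesins that were higher was 0 with the trend and robust options, with array medians subtracted and with array weights, 2 after quantile normalization (*Kif3c* and *Kif13a*), and 1 to 3 with a line left out (3 without H3, where 6.87% of all genes were higher, and 3 without H4, where 24.6% were). Their median was 0.037 with array medians subtracted, 0.099 after quantile normalization, 0.063 with array weights and 0.035 (without H3) to 0.086 with a line left out. The cause of these shifts was not tested. *Kif2a* changed sign after quantile normalization (0.031) and without H3 (0.020), with a range of -0.12 to 0.020 with a line left out, *Kif3a* with array medians subtracted (-0.0012), without H4 (-0.15) and without the untransduced line (-0.0039), with a range of -0.15 to 0.24 with a line left out, and *Kif5b* after quantile normalization (0.033), without H3 (0.019) and without the untransduced line (0.0087), with a range of -0.074 to 0.019; none of these values passed.

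*Kif2c*, *Kif4*, *Kif18a*, *Kif20b*, *Kif23* and *Kif24* were lower under all 12 alternatives. *Kif2c* passed the adjusted threshold over all genes with genes of low mean dropped (adjusted p = 0.0463 from limma) and without H4 (0.0486), as did 4 genes in all in the first setting and 1266 in the second, and its adjusted p reached 0.718 without H5. Without H3 or H4 the remaining knockdown line is assumed to vary like the control lines. No paired analysis was possible because the labels give the lines no shared replicate numbers. Of 13 mitotic kinesins 1 shared a value between lines, against 7 of 15 transport kinesins and 38.4% of all genes, and shared values make the spread of a gene look small.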

Other observations

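Of the kinesins with a second probe set, that of *Kif14* lay at 4.49 with H3 and 4.47 with H4, against 4.44 to 4.48 in the controls, which is a fold change (log2) of 0.030 beside -1.32 for the one used. That of *Kif6* lay at 5.59 in both knockdown lines, against 5.59 to 5.64 in the controls (-0.017 beside 0.22). These lay under the low-mean limit of 5.86, as did that of *Kif26b*, and a fold change at that level says little of the gene. The second probe sets of *Kif1c* (0.10 beside 0.12), *Kif7* (0.12 beside 0.13) and *Kif26b* (0.068 beside 0.045) gave similar values. The pseudogene *Kif4-ps*, which has probe sets of its own, lay at 5.73 with H3 and 5.45 with H4, against 5.72 in every control line.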
